A study of Caenorhabditis elegans with 20 samples.

Results

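Adult *Caenorhabditis elegans* carrying the *daf-2* allele e1370 were compared with adults carrying the *daf-2* allele m577, both with the wild-type *daf-16* gene. The arrays were chosen by their genotype labels, which gave 5 for each allele, 10 of the 20 arrays in the series. The other 10 arrays carried the same alleles together with *daf-16*(mgDf50), a deletion of *daf-16*, and they are used here only to set the difference between the alleles beside the same difference without *daf-16*. Every strain, controls included, had *glp-4*(bn2) as well, which at high temperature leaves adults with an undeveloped germline and no progeny. The full genotypes were therefore *glp-4*(bn2); *daf-2*(e1370) and *glp-4*(bn2); *daf-2*(m577), and no strain had wild-type *daf-2* or wild-type *glp-4*. Larvae hatched at 20 °C, grew at 15 °C and were moved to 25 °C when most were at the L4 stage, and RNA was taken from whole sterile adults aged 1 day, with 8 plates of animals to each biological replicate. A whole-animal measurement pools all tissues, so fewer cells of a type and less RNA per cell cannot be told apart in any result below.

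DAF-2 is the only insulin/IGF-1 receptor of the worm. When it signals, a kinase cascade keeps the FOXO transcription factor DAF-16 out of the nucleus, and when signalling is reduced DAF-16 enters the nucleus and changes the expression of genes for stress resistance, metabolism, immunity and yolk. Mutant alleles of *daf-2* are usually sorted into a first class, with dauer formation, thermotolerance and long life, and a second, more pleiotropic class that adds reduced movement, altered gonads and fewer progeny. m577 is usually placed in the first class and e1370, which alters the kinase domain, in the second.

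All levels are deposited log2 values, and each difference is e1370 minus m577 on the log2 scale, with its standard error (SE) from limma, a linear model fitted to all 20 arrays. A probe set or gene passed the threshold at a Benjamini-Hochberg adjusted p under 0.05 over the 22548 probe sets tested, and "rose" and "fell" are used of e1370 relative to m577. Array medians lay between 6.44 and 6.57. The 15 Bacillus control probe sets, which match no worm gene, lay between 4.21 and 6.29 with a median of 4.62, and this span is called the background range. Of 32 markers of intestine, muscle, pharynx, neurons, cuticle, germline and embryo, 30 had both genotype means above it, and 1 of the 32, the intestinal *vha-6*, passed the threshold. The intestinal *ifb-2* and *act-5* differed by -1.68 ± 0.57 and -1.49 ± 0.46, about as much as *vha-6* (-1.41 ± 0.34), without passing (limma adjusted p = 0.148 and 0.109). The intestinal *elt-2* and *ges-1* differed by only -0.23 ± 0.26 and -0.25 ± 0.33. The 3' minus 5' score of control transcripts, a measure of RNA integrity, was 1.37 ± 0.19 in e1370 and 1.33 ± 0.16 in m577 (SD, n = 5; exact permutation p = 0.643, 2-sided, smallest possible p 0.00794).

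Neither allele was distinguished by the level of its own gene. The 4 probe sets of *daf-2* had means between 4.84 and 5.48, inside the background range, and none passed. The best-expressed of them had a level of 5.34 ± 0.17 in e1370 and 5.48 ± 0.26 in m577 (SD, n = 5). No wild-type animals were measured and neither allele is a deletion, so these levels do not check the labels. *daf-16* was at 8.00 ± 0.52 in e1370 and 7.75 ± 0.69 in m577 on its brightest probe set (difference 0.25 ± 0.38, limma adjusted p = 0.785), and the *glp-4* probe set did not pass either.

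The sperm and oocyte genes differed between arrays of 1 genotype more than between genotypes. The mean level of 79 sperm genes ran from 7.67 to 9.71 over the e1370 arrays and from 7.29 to 9.53 over the m577 arrays. It was lowest on e1370 replicate 4 (7.67) and m577 replicate 3 (7.29). On these arrays the mean level of 57 oocyte and germ cell genes was 10.29 and 10.27, the highest of each genotype, and e1370 replicate 5 followed at 10.14. Both list means were above the background range on all 10 arrays, although the animals were labelled sterile. The plot of both germline lists by array shows these arrays apart from the rest. No sperm, oocyte, embryo or somatic gonad gene on the lists passed the threshold, with median differences of 0.03 for sperm genes and 0.25 for oocyte genes. With the means of both lists as covariates, 1327 probe sets passed, among them all 297 that passed without these covariates, and all 81 named genes kept the call.

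**Figure D1:**
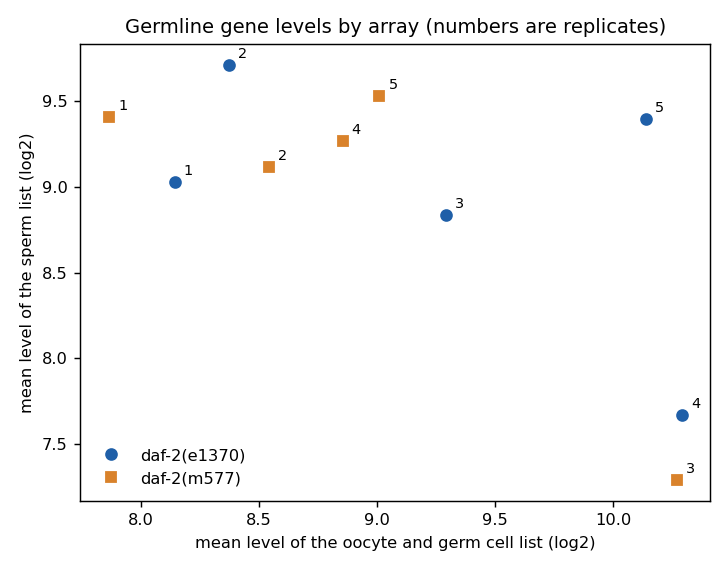
Mean log2 level of the oocyte and germ cell list (horizontal axis) and of the sperm list (vertical axis) on each of the 10 arrays, with circles for *daf-2*(e1370), squares for *daf-2*(m577) and replicate numbers beside the points. m577 replicate 3 and e1370 replicate 4 lie at the lower right, with sperm means of 7.29 and 7.67 and oocyte means of 10.27 and 10.29.

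Between the alleles, 297 of 22548 probe sets passed the threshold (1.32%), 164 of them higher and 133 lower in e1370. At least 2-fold changes numbered 136 rises and 99 falls, and at least 4-fold changes 25 rises and 35 falls. Of the 15 largest rises 7 had a genotype mean in the background range, as had 2 of the 15 largest falls. With each array normalized by cyclic loess the counts were 116 higher and 155 lower, so which direction held more calls depended on the scaling. Counted by gene, with 1 probe set for each of 17118 genes, 136 genes rose (0.794%) and 108 fell (0.631%). List counts below are to be read beside these shares, and 1 or 2 members past the threshold are no result about a family. The 5 e1370 values lay entirely above the m577 values for 300 genes (1.75%) and entirely below them for 255 genes (1.49%). For 73 of the 244 genes that passed, a genotype mean lay in the background range, so the size of their change is limited by background. The number of probe sets passing was sensitive to single arrays: it was 162 without e1370 replicate 1, 166 without e1370 replicate 4, and 179, 144, 121 and 124 without m577 replicates 1, 2, 4 and 5. It was 695 without e1370 replicate 3 and 632 without m577 replicate 3. Of 81 named genes that passed, 39 did so with any 1 of the 10 arrays left out. After cyclic loess 17 of the 81 did not pass: *T20G5.8*, *T04D3.8*, *Y39G8B.7*, *sod-3*, *hil-1*, *hsp-12.3*, *lbp-4*, *lips-15*, *clc-1*, *clk-1*, *cpt-3*, *ugt-31*, *ugt-64*, *mrpl-32*, *mrpl-41*, *mrpl-54* and *mrps-17*.

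The largest changes in either direction are set out by array in the plot of leading genes. These leading genes were chosen among genes without overlap between the genotypes, so their lack of overlap below follows from the choice. *ilys-5* encodes an invertebrate-type lysozyme, an enzyme that cleaves bacterial cell walls, and it lies on chromosome X. Its levels were 7.59, 7.57, 6.72, 5.96 and 6.55 on the e1370 arrays and 13.34, 13.04, 12.76, 12.94 and 12.91 on the m577 arrays. The m577 arrays were uniformly near the top of the measured scale, whose highest value was 14.27, and every e1370 array lay more than 5 units below them. It fell by 6.12 ± 0.29, a 69.6-fold difference (limma adjusted p = 3.46e-10), and its other probe sets fell by 6.32 and 6.6. All of these probe sets are of the _s_at or _x_at kind, which can match more than 1 transcript, so their agreement may not be independent. *ilys-5* was 1 of 16 lysozyme genes on the list, and no other member passed.

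**Figure D2:**
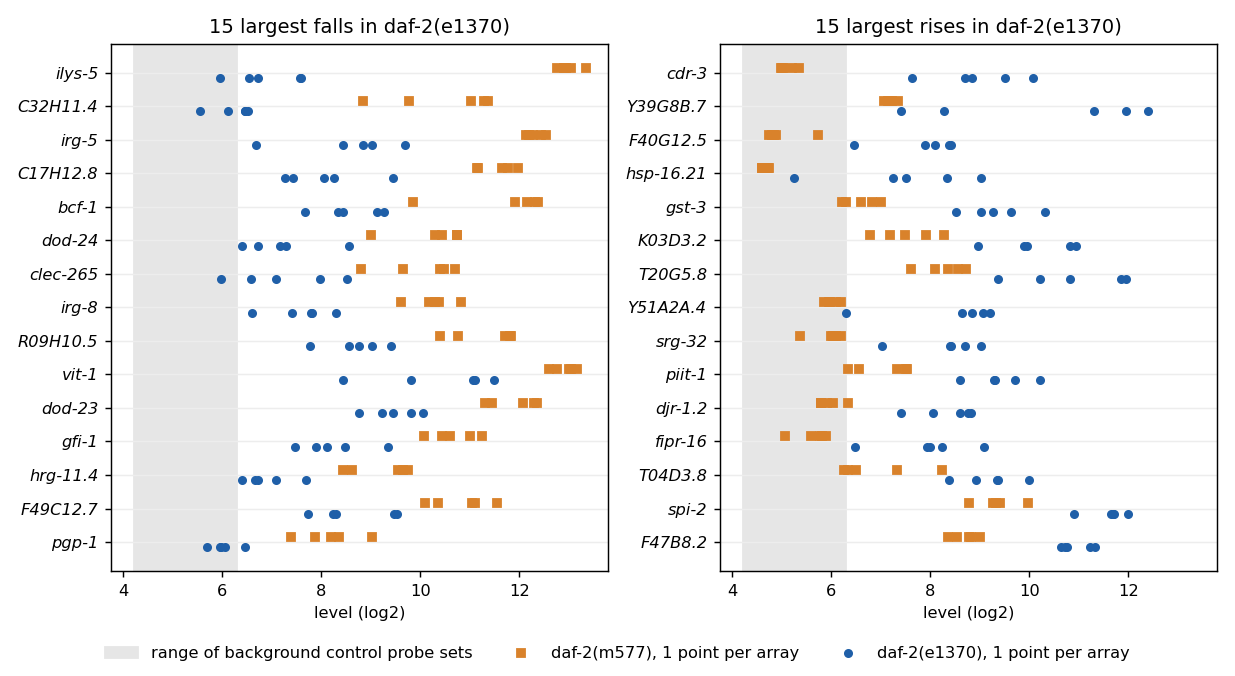
Log2 level on each array for the 15 genes with the largest fall (left) and the 15 with the largest rise (right) among genes that passed the threshold without overlap between genotypes, with circles for *daf-2*(e1370) and squares for *daf-2*(m577). The shaded band is the background range, 4.21 to 6.29, and *ilys-5* and *cdr-3* show the largest fall and rise.

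Several of the strongest falls were genes that DAF-16 is known to repress or that respond to infection. *C32H11.4* and *dod-24* are on published lists of genes lowered through *daf-16*, and *irg-5* is on that list and on a list of infection response genes. The levels of *C32H11.4* were 6.52, 6.47, 6.47, 5.55 and 6.11 in e1370 and 9.77, 11.36, 8.85, 11.30 and 11.02 in m577. The e1370 values straddled the upper end of the background range, and the lowest m577 value, that of replicate 3, was still above all of them. *C32H11.4* fell by 4.23 ± 0.39 (limma adjusted p = 6.56e-06).

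*irg-5* stood at 9.03, 6.69, 8.44, 8.85 and 9.69 in e1370 and at 12.14, 12.55, 12.19, 12.44 and 12.28 in m577. The m577 arrays were tightly grouped while e1370 replicate 2 was lowest, and the genotypes did not overlap. It fell by 3.78 ± 0.35 (limma adjusted p = 6.88e-06). *C17H12.8* had levels of 7.43, 7.26, 8.06, 8.27 and 9.46 in e1370 and 11.14, 11.97, 11.18, 11.65 and 11.77 in m577. All e1370 arrays were again below all m577 arrays. It fell by 3.45 ± 0.31 (adjusted p = 6.18e-06), and a second probe set fell by 3.84.

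The list of 14 genes published as lowered through *daf-16* in *daf-2* mutants had 4 members that fell (28.6%) and none that rose. These were *C32H11.4*, *irg-5*, *dod-24* (-3.02 ± 0.34) and *dod-23* (-2.44 ± 0.23), all of which passed with any 1 of the 10 arrays left out. Its median difference was -1.04, against -0.04 over all genes, and all 14 members were negative. *daf-2* mutants were also used to define such lists, and this one was chosen with earlier results of these data known, so the count is a description. Of 39 infection response genes 4 fell and none rose, with a median of -0.16, and beside *irg-5* and *C17H12.8* these were *irg-8* (-2.68 ± 0.30) and *irg-4* (-1.54 ± 0.34). *irg-4* lost the call without e1370 replicate 1 or m577 replicates 2, 4 or 5 (limma adjusted p 0.0579 to 0.0854).

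C-type lectins are secreted or membrane carbohydrate-binding proteins, many of them induced in the gut by bacteria. Of 220 measured, 11 fell and 1 rose, with a median of -0.27, and 157 had a mean in the background range. *clec-265* had levels of 7.98, 8.51, 7.08, 5.97 and 6.59 in e1370 and 9.66, 10.49, 8.80, 10.70 and 10.41 in m577. The highest e1370 value was just below the lowest m577 value, so the genotypes did not overlap. It fell by 2.78 ± 0.50 (limma adjusted p = 0.00808), and *clec-67* and *clec-51* fell by 2.25 ± 0.53 and 1.70 ± 0.36. *clec-17* rose by 1.47 ± 0.33. The number of falls was 4 to 15 with single arrays left out, lowest without m577 replicates 2, 4 or 5, and the calls of *clec-67*, *clec-51* and *clec-17* were lost in 7, 4 and 6 of the 10 cases (adjusted p up to 0.129, 0.0768 and 0.0966).

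Other leading falls were in genes with varied or uncharacterised products. *bcf-1* and its chromosome V neighbour *gfi-1* fell by 3.16 ± 0.63 and 2.42 ± 0.47. *bcf-1* lost the call without m577 replicates 4 or 5 (limma adjusted p 0.058 and 0.0612) and *gfi-1* without m577 replicate 4 (adjusted p = 0.0508). *pgp-1*, a P-glycoprotein of the ATP-binding cassette transporters, fell by 2.15 ± 0.34 to a level of 6.03, inside the background range. It alone of 48 transporters passed (2.08%, against falls in 0.631% of all genes). *R09H10.5*, *hrg-11.4* and *F49C12.7* fell by 2.60 ± 0.54, 2.29 ± 0.51 and 2.18 ± 0.37. *R09H10.5* and *hrg-11.4* lost the call without 5 and 6 of the 10 arrays (adjusted p up to 0.0729 and 0.0917). Among the 15 largest falls, 8 rested on probe sets of the _s_at or _x_at kind, which can match more than 1 transcript.

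Yolk proteins are made in the adult intestine and taken up by oocytes, and their genes are known to be lowered by reduced insulin signalling. All 5 measured *vit* genes were lower in e1370, with a median of -1.0, but only *vit-1* passed. The levels of *vit-1* were 8.44, 11.07, 11.50, 11.11 and 9.81 in e1370 and 12.76, 13.01, 12.601, 13.17 and 13.04 in m577. The m577 arrays agreed closely and the e1370 arrays spread widely, with replicate 1 lowest and replicate 5 next. *vit-1* fell by 2.53 ± 0.49 (limma adjusted p = 0.0161), and did not pass with only e1370 and m577 in the fit.

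In the remaining yolk genes, too, e1370 replicate 1 was the lowest array. *vit-2* was at 9.59, 12.20, 12.63, 12.66 and 11.34 in e1370 and at 12.58, 12.86, 12.77, 12.599 and 12.585 in m577, a difference of -1.0 ± 0.44 (limma adjusted p = 0.302). *vit-4*, *vit-5* and *vit-6* differed by -0.88 ± 0.32, -0.95 ± 0.33 and -1.06 ± 0.39 (adjusted p 0.167 to 0.197). Their m577 means were 13.9, close to the highest value on these arrays. The list median was -0.58 without e1370 replicate 1 and -1.24 without e1370 replicate 4.

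**Figure D3:**
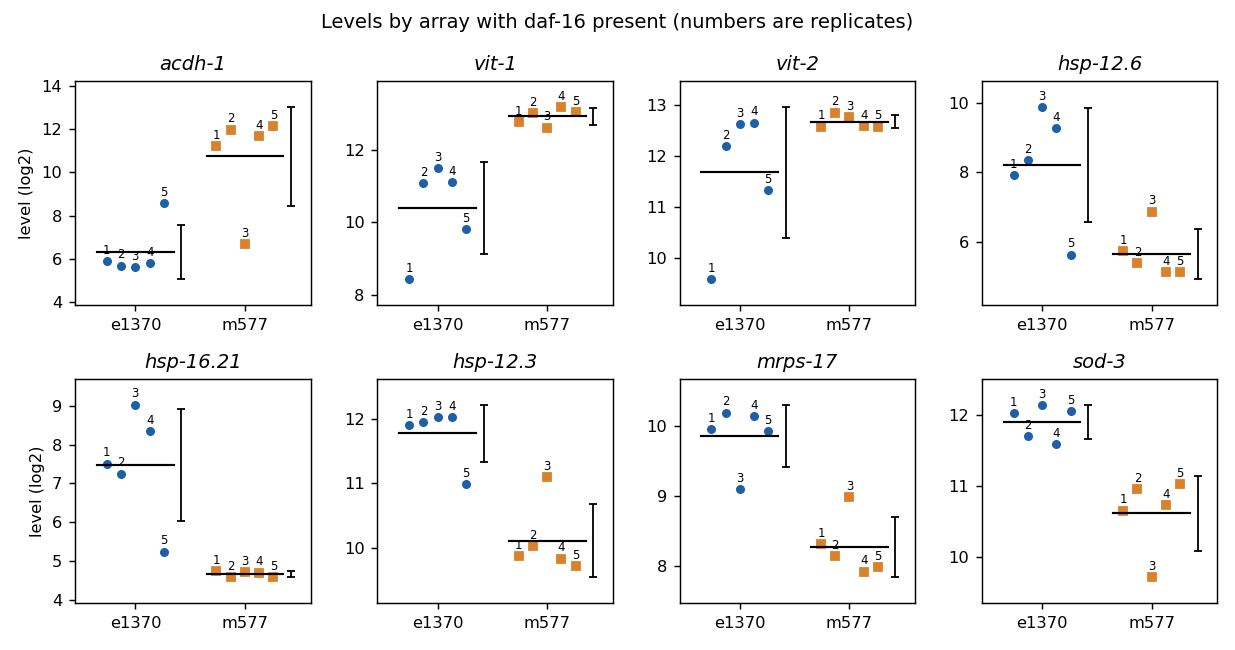
Log2 level by array for 8 genes in *daf-2*(e1370) (circles) and *daf-2*(m577) (squares), with replicate numbers above the points, a line at the mean of 5 arrays and a bar of ± 1 SD at its right. The arrays that stand apart differ by gene: e1370 replicate 1 is lowest for both yolk genes, e1370 replicate 5 is lowest for the small heat shock genes, and m577 replicate 3 is far below the other m577 arrays for *acdh-1*.

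A few other intestinal genes fell. Of 24 intestinal identity and transport genes 3 fell and none rose, with a median of -0.58: the acid phosphatase *pho-1* (-1.42 ± 0.33), the proton pump subunit *vha-6* (-1.41 ± 0.34) and the aspartyl protease *asp-1* (-1.28 ± 0.29). Each of these lost the call without at least 7 of the 10 arrays (limma adjusted p up to 0.121, 0.125 and 0.0977). The proteases *asp-8* (-1.52 ± 0.24) and *cpz-1* (-1.0 ± 0.14) kept it throughout. Among 38 proteases 3 fell, with a median of -0.39.

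Fatty acid oxidation genes had a median of -0.39 over 61 members, of which 50 were negative and 2 fell (3.28%, against 0.631% of all genes). *acdh-1* encodes an acyl-CoA dehydrogenase of propionate breakdown, and its expression is known to depend on dietary vitamin B12. Its levels were 5.90, 5.68, 5.6, 5.81 and 8.57 in e1370 and 11.22, 11.98, 6.67, 11.68 and 12.13 in m577. e1370 replicate 5 was far above its group and m577 replicate 3 far below its own, and through these arrays the genotypes overlapped. The difference was -4.42 ± 0.93 (limma adjusted p = 0.0232), -5.44 without m577 replicate 3 and not past the threshold without 7 of the other arrays (adjusted p 0.0516 to 0.0761). The carnitine palmitoyltransferase *cpt-3* fell by 1.06 ± 0.21, and it lost the call without e1370 replicate 1 (adjusted p = 0.0525).

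In sugar metabolism, 2 of 14 trehalose and glycogen genes fell, the glucosidase *aagr-2* (-1.79 ± 0.39) and the trehalase *tre-3* (-1.18 ± 0.24). *aagr-2* lost the call without 6 of the 10 arrays and *tre-3* without 3 (limma adjusted p up to 0.0911 and 0.0598). No gene of glycolysis (16 measured) or of the glyoxylate cycle and gluconeogenesis (9 measured) passed, and all 9 of the latter were negative with a median of -0.26. Of 43 lipases and fatty acid carriers, the lysosomal lipase *lipl-2* fell by 1.44 ± 0.31. The fatty acid and retinol binding *far-7* and the fatty acid binding *lbp-4* rose by 1.95 ± 0.37 and 1.93 ± 0.40, as did *lips-15*, a lipase-class gene, by 1.28 ± 0.28. *lipl-2*, *lbp-4* and *lips-15* lost the call without 6, 6 and 5 of the arrays (adjusted p up to 0.0708, 0.0671 and 0.0877).

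Stress and detoxification genes were among the largest rises. *cdr-3*, of a family named for its response to cadmium, had levels of 8.84, 10.07, 9.51, 8.69 and 7.63 in e1370 and 4.99, 5.21, 5.35, 5.00 and 5.03 in m577. It was inside the background range on every m577 array and above it on every e1370 array. It rose by 3.83 ± 0.29 (limma adjusted p = 3.88e-07), while its relative *cdr-1* fell by 0.92 ± 0.18, a call lost without m577 replicate 4 (adjusted p = 0.0572).

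Glutathione S-transferases join glutathione to reactive compounds, and 3 of 43 rose while none fell, with a median of -0.01 for the list and 0.05 after each array was centred on its median. *gst-3* had levels of 9.64, 10.32, 9.03, 9.28 and 8.51 in e1370 and 6.83, 6.61, 7.01, 6.29 and 6.22 in m577. All e1370 arrays exceeded all m577 arrays, with e1370 replicate 5 lowest. It rose by 2.76 ± 0.27 (limma adjusted p = 1.13e-05), *gst-15* by 1.77 ± 0.20 and *gst-41* by 1.74 ± 0.27. *djr-1.2*, a glyoxalase that removes reactive aldehydes, was at 8.82, 8.05, 8.75, 8.60 and 7.42 in e1370 and at 6.35, 5.79, 5.78, 5.92 and 6.03 in m577. The genotypes were again apart and the m577 mean lay in the background range. *djr-1.2* rose by 2.35 ± 0.22 (adjusted p = 6.56e-06), and the aldehyde dehydrogenase *alh-2* rose by 1.71 ± 0.25.

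Small heat shock proteins hold unfolded proteins in solution, and 4 of 12 rose and none fell, with a median of 0.93. *hsp-16.21* had levels of 7.51, 7.25, 9.03, 8.35 and 5.25 in e1370 and 4.75, 4.59, 4.73, 4.71 and 4.60 in m577. e1370 replicate 5 was far below its group, near the background level of the m577 arrays. *hsp-16.21* rose by 2.80 ± 0.43 (limma adjusted p = 0.00242), and its neighbour *hsp-16.20* by 1.37 ± 0.28. The SD of *hsp-16.21* was 1.43 in e1370 and 0.07 in m577, while the SE pools the spread of all genotypes. With only e1370 and m577 in the fit, neither *hsp-16.21* nor *hsp-16.20* passed.

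*hsp-12.6* was at 7.93, 8.35, 9.88, 9.26 and 5.64 in e1370 and at 5.75, 5.39, 6.87, 5.14 and 5.14 in m577. The genotypes overlapped through e1370 replicate 5 and m577 replicate 3. The rise was 2.55 ± 0.54 (limma adjusted p = 0.0253), and that of the neighbouring *hsp-12.3* was 1.67 ± 0.37. *hsp-12.6* and *hsp-12.3* lost the call without any 1 of e1370 replicates 1, 2 and 4 and m577 replicates 1, 2, 4 and 5 (adjusted p 0.05 to 0.0916), and *hsp-16.20* without 5 arrays (adjusted p up to 0.0637). *hsp-16.2* and *hsp-16.41* differed by 1.54 ± 0.51 and 1.41 ± 0.48 and did not pass. Without *daf-16* they differed by much the same, 1.43 ± 0.51 and 1.36 ± 0.48, and did not pass there either. The list count was 1 to 5 over the 10 cases with an array left out, highest without e1370 replicate 5.

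Genes published as raised through *daf-16* gave a mixed picture. Of 30, 5 rose and 1 fell, with a median of 0.47. Beside *hsp-12.6*, *djr-1.2* and *hsp-12.3* these were the manganese superoxide dismutase *sod-3*, the linker histone *hil-1* (0.98 ± 0.21) and, falling, the transhydrogenase *nnt-1* (-1.07 ± 0.22), the last chosen after its values were seen and not passing without m577 replicates 2, 4 or 5. *sod-3* was at 12.03, 11.71, 12.15, 11.60 and 12.06 in e1370 and at 10.66, 10.96, 9.73, 10.73 and 11.03 in m577. The genotypes did not overlap and m577 replicate 3 was lowest. *sod-3* rose by 1.29 ± 0.25 (limma adjusted p = 0.0158), which did not pass after cyclic loess. *sod-2*, *sod-4* and *sod-5* differed by 0.74 ± 0.20, 1.1 ± 0.35 and 1.64 ± 0.41 and did not pass (adjusted p 0.0562 to 0.119). *sod-1*, a cytosolic enzyme, differed by 0.04 ± 0.12. The count of rises was 2 to 7 with an array left out, lowest without e1370 replicates 1 or 4 or m577 replicates 4 or 5, and *hil-1* lost the call without 5 arrays (adjusted p up to 0.0863).

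Other leading rises were in genes of less certain function. *F40G12.5* had levels of 8.09, 7.90, 8.41, 8.38 and 6.47 in e1370 and 4.88, 4.80, 5.74, 4.85 and 4.74 in m577. The m577 arrays lay in the background range and the e1370 arrays above it, and *F40G12.5* rose by 2.85 ± 0.28 (limma adjusted p = 1.13e-05). *F47B8.2*, *spi-2*, *piit-1* and *K03D3.2* rose by 2.23 ± 0.16, 2.23 ± 0.22, 2.37 ± 0.27 and 2.58 ± 0.33, with no genotype mean in the background range. *srg-32*, which encodes a serpentine receptor, rose by 2.37 ± 0.26 from a background level of 5.94.

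*Y39G8B.7* was at 12.41, 11.95, 11.30, 8.28 and 7.40 in e1370 and between 7.07 and 7.35 in m577. It was far above the m577 arrays on e1370 replicates 1 to 3, less so on replicate 4, and just above them on replicate 5. Its rise of 3.08 ± 0.69 (limma adjusted p = 0.0345) did not pass without 6 of the 10 arrays (adjusted p up to 0.0894). *T20G5.8* and *T04D3.8* rose by 2.57 ± 0.50 and 2.28 ± 0.51, and *T04D3.8* lost the call without 8 arrays (adjusted p up to 0.107). *T20G5.8* kept it with any 1 array left out and lost it after cyclic loess and without both e1370 replicate 2 and m577 replicate 1. *Y51A2A.4* rose by 2.40 ± 0.37, but its second probe set differed by 0.58 ± 0.23 (adjusted p = 0.239). Of 8 further probe sets of named genes that passed, all had the same sign and 5 passed.

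Of 40 antimicrobial and epidermal defence peptide genes, 4 rose and none fell, with a median of -0.01 that became 0.05 under median centring and under cyclic loess. These were *fipr-16* (2.32 ± 0.43), *fipr-24* (2.28 ± 0.45) and *fipr-26* (2.00 ± 0.32), of a family related to fungus-induced proteins, and *thn-1*, a thaumatin-family gene (1.31 ± 0.29). *fipr-24* lost the call without m577 replicate 5 and *thn-1* without 5 arrays (limma adjusted p up to 0.0548 and 0.0966). *spp-27*, a saposin-like gene, rose by 2.08 ± 0.42 from the background range, and lost the call without m577 replicates 4 or 5 (adjusted p 0.0509 and 0.0533).

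Cytochrome P450 enzymes moved in both directions. Of 73, 5 fell and 2 rose, with a median of -0.15. *cyp-35A3*, *cyp-37B1* and *cyp-37A1* fell by 2.37 ± 0.44, 1.81 ± 0.26 and 1.73 ± 0.36, and *cyp-13B1* rose by 1.91 ± 0.26, with a second probe set rising by 2.08. The levels of *cyp-37B1* were 7.81, 7.68, 7.92, 7.92 and 7.17 in e1370 and 9.62, 9.67, 9.51, 9.38 and 9.36 in m577, which were tight and apart. *cyp-37A1* lost the call without 5 of the arrays (limma adjusted p up to 0.0671). Of 64 UDP-glucuronosyltransferases, which attach sugar to lipophilic compounds, 3 fell (4.69%, against 0.631% of all genes). These were *ugt-22* (-1.2 ± 0.26), *ugt-31* (-1.19 ± 0.27) and *ugt-64* (-0.70 ± 0.14). They lost the call without 5, 6 and 2 arrays (adjusted p up to 0.0969, 0.1 and 0.0558).

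Nearly all genes for mitochondrial ribosomal proteins had a higher mean in e1370, though few passed. The mean level of the 59 genes was 9.18, 8.60, 8.46, 8.98 and 9.28 on the e1370 arrays and 7.86, 8.11, 8.55, 8.02 and 8.11 on the m577 arrays. m577 replicate 3 exceeded e1370 replicate 3, and all other arrays were in the order of genotype. The median difference was 0.72, 56 of 59 were positive, and 6 rose, led by *mrpl-54* (1.62 ± 0.39), *mrps-17* (1.59 ± 0.35), *mrpl-32* (1.53 ± 0.35) and *mrpl-41* (1.2 ± 0.27). The count of rises was 0 after cyclic loess, where the median was 0.62, and 0 without e1370 replicate 1 or m577 replicates 1, 2, 4 or 5. It was 1 or 2 without e1370 replicates 2, 4 or 5, and 17 and 15 without e1370 replicate 3 and m577 replicate 3. Cytosolic ribosomal proteins had a median of 0.16 over 75 genes and none passed. Of 41 respiratory chain genes, *clk-1*, of ubiquinone synthesis, rose by 0.88 ± 0.20, a call lost without 8 arrays (limma adjusted p up to 0.11). It was the only member that passed (2.44%, against rises in 0.794% of all genes).

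**Figure D4:**
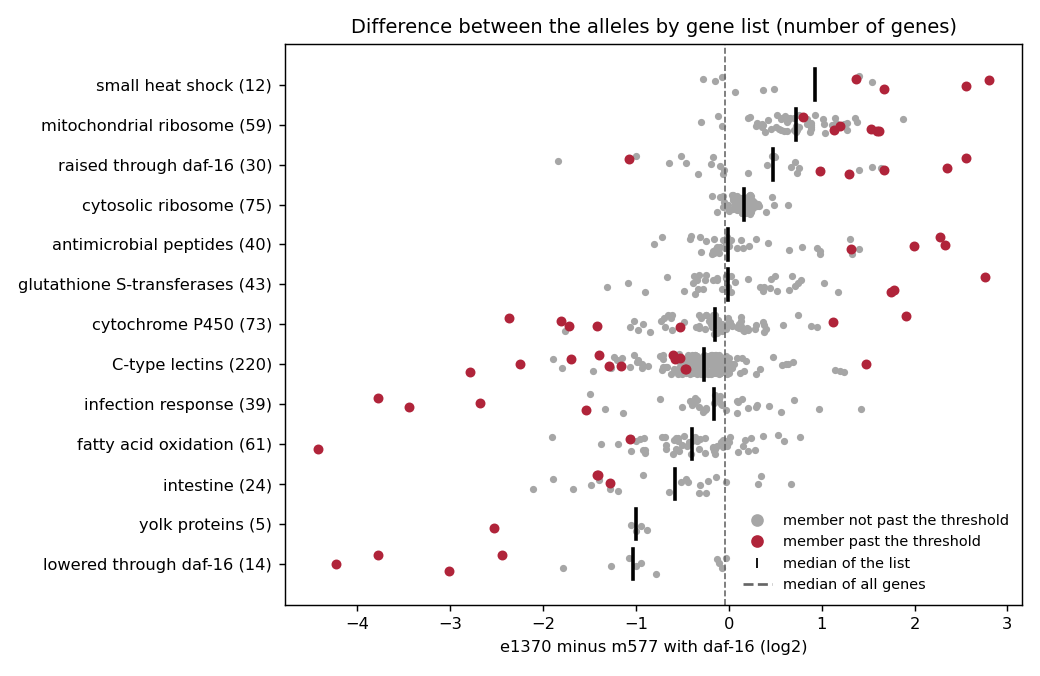
Difference between the alleles (log2, e1370 minus m577) of each member of 13 gene lists, with the number of genes in brackets. Red points passed the threshold, black marks are list medians and the dashed line is the median of all genes, -0.04. List medians run from -1.04 for genes lowered through *daf-16* to 0.93 for small heat shock genes.

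None of 21 genes of the insulin pathway itself passed, with a median of -0.00. *age-1* and *aap-1*, the subunits of phosphoinositide 3-kinase, differed by 0.31 ± 0.42 and 0.81 ± 0.77, *akt-1* by 0.35 ± 0.36, *daf-18*, the opposing phosphatase, by 0.38 ± 0.70 and *sgk-1* by -0.69 ± 0.31. *aap-1* and *daf-18* varied widely within a genotype, *aap-1* from 6.06 to 9.98 over the e1370 arrays. Of 24 insulin-like peptides, the neighbouring *ins-22* and *ins-23* rose, by 1.59 ± 0.32 and 1.25 ± 0.22, both from m577 means in the background range. *ins-22* lost the call without m577 replicates 4 or 5 (limma adjusted p 0.0626 and 0.0637).

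In hormone signalling, *daf-36* encodes an oxygenase that starts the synthesis of dafachronic acid, the steroid that promotes reproductive growth. Its levels were 6.56, 6.09, 5.87, 5.43 and 6.46 in e1370 and 7.37, 8.19, 7.57, 7.65 and 7.78 in m577. The e1370 values were at or near background and the genotypes did not overlap. *daf-36* fell by 1.63 ± 0.22 (limma adjusted p = 0.000741), and no other of 23 dauer hormone and TGF-beta genes passed. Among 259 nuclear hormone receptors 3 passed (1.16%), a share near that of all genes, and these rose: *nhr-206* (1.22 ± 0.20), *nhr-44* (0.94 ± 0.22) and *nhr-208* (0.58 ± 0.10), each with a mean in the background range, and *nhr-44* lost the call without 7 arrays (adjusted p up to 0.114). Of 53 neuropeptide precursors *nlp-39* and *nlp-35* rose by 1.67 ± 0.37 and 1.47 ± 0.31 (3.77%, against rises in 0.794% of all genes). Their calls were lost without 7 and 4 arrays (adjusted p up to 0.0947 and 0.0671).

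Several structural and housekeeping lists had no member past the threshold. This held for 146 cuticle collagens, 155 other cuticle genes, 26 body wall muscle genes, 36 neuronal genes, 33 proteasome subunits, 15 cytosolic chaperones and 16 endoplasmic reticulum chaperones. Their medians ran from -0.30 for the endoplasmic reticulum chaperones to 0.18 for the proteasome. The largest collagen differences, *col-183* (2.08 ± 0.52) and *col-50* (1.66 ± 0.41), had limma adjusted p of 0.0561 and 0.0563. Transthyretin-like genes had a median of 0.33 over 40 members, and the claudin-like *clc-1* rose by 1.06 ± 0.23, as did its second probe set by 1.08, with the call lost without 5 arrays (adjusted p up to 0.0872).

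Without *daf-16*, the alleles differed at 1 probe set of 22548 (0.00443%), a probe set with several gene symbols that was higher in e1370 by 2.52 ± 0.36 (limma adjusted p = 0.0417). At an unadjusted p under 0.05 there were 775 probe sets, against 3324 with *daf-16*. The count was 0 without 7 of the 10 arrays and 5 without *daf-16*(mgDf50); *daf-2*(m577) replicate 1. On the arrays without *daf-16*, the 3' minus 5' score ran from 1.29 to 1.55 in e1370 and from 1.72 to 2.32 in m577, without overlap. Sperm genes had a median difference of -0.93 without *daf-16* and 0.03 with it. These array differences also enter the change of the difference below, and their effect was not tested. Over the 244 genes that passed with *daf-16*, the median size of the difference was 1.44 with it and 0.20 without it, against 0.21 and 0.12 over all genes. These genes were chosen for their difference with *daf-16*, so a larger size there follows from the choice. The sign was the same without *daf-16* for 160 of them (65.6%), against 60.8% of all genes, and these comparisons share no arrays.

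**Figure D5:**
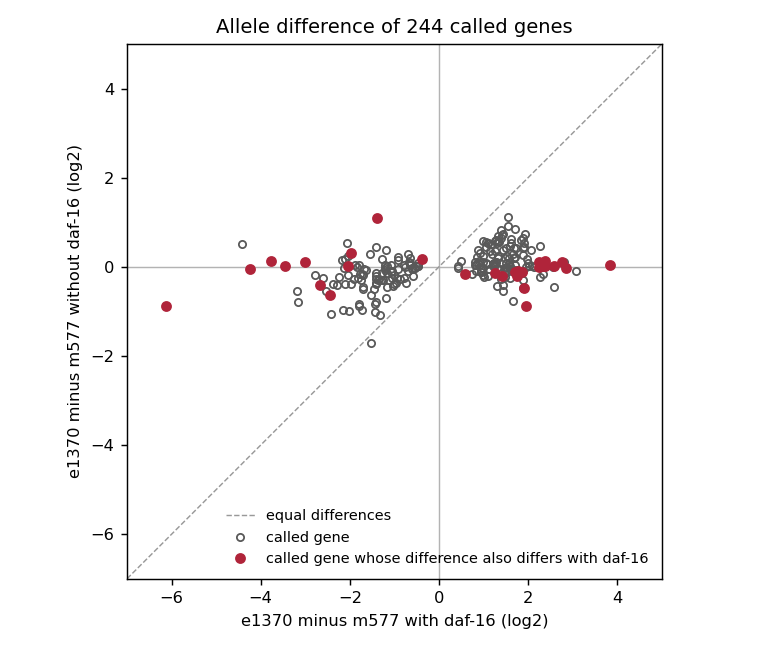
Difference between the alleles (log2, e1370 minus m577) with *daf-16* (horizontal axis) and without it (vertical axis) for the 244 genes that passed the threshold with *daf-16*. Filled points are the 29 genes whose difference itself differed between the backgrounds, and the dashed line marks equal differences.

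The test of whether the difference between alleles itself differed with *daf-16* passed for 40 probe sets (0.177%), with 1247 at an unadjusted p under 0.05. Of the 244 genes, 29 passed it. The 244 genes were chosen for their difference with *daf-16*, which is a term of this test, so the choice raises that count. *ilys-5* was at 12.18 ± 0.45 and 13.06 ± 0.43 in e1370 and m577 without *daf-16* (SD, n = 5), a difference of -0.89 ± 0.29, and the change of the difference was -5.24 ± 0.41 (limma adjusted p = 1.63e-06). *cdr-3* was at 4.66 ± 0.05 and 4.61 ± 0.06, inside the background range in both, and its difference changed by 3.78 ± 0.40 (adjusted p = 0.000113). *C32H11.4*, *irg-5* and *dod-24* reached 12.4 or more in both strains without *daf-16*, with differences of -0.05, 0.14 and 0.10.

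The leading rises differed by -0.45 to 0.47 without *daf-16*, and 9 of 15 passed the test of the change. The leading falls differed by -1.07 to 0.15, and 7 of 15 passed it. Leading genes were likewise chosen by their difference with *daf-16*, which raises these counts too. Of the 244 genes, 6 had a difference over 1 in size without *daf-16*. Among these, chosen after their values were seen, *Y51H4A.5*, *F13B6.3* and *lcmt-1* had -1.71, -1.07 and 1.12, beside -1.53, -1.33 and 1.55 with *daf-16*. *C17H12.6* had 1.09, beside -1.39 with *daf-16*. *gfi-1* and *pgp-1* had -1.07 ± 0.47 and -0.97 ± 0.34 without *daf-16*, and *lipl-2*, outside the leading genes, had -1.0 ± 0.31. *fat-7*, a stearoyl-CoA desaturase, went the other way: it differed by -0.65 ± 0.21 with *daf-16* and 1.26 ± 0.21 without it, and neither passed, while the change of -1.91 ± 0.30 did (limma adjusted p = 0.00671). Of the 22 named genes that passed this test, 16 did so with any 1 of the 20 arrays left out, and *K03D3.2*, *dod-23*, *far-7*, *gst-41*, *irg-8* and *nhr-208* did not (adjusted p up to 0.106).

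The same genes can be set out by the effect of *daf-16* in each allele, which uses the same arrays as the comparison above and adds no independent evidence. *ilys-5* was lower with *daf-16* than without it by -5.30 ± 0.29 in e1370, and the difference in m577 was -0.07 ± 0.29. *irg-5* gave -4.37 ± 0.35 and -0.45 ± 0.35, while *C32H11.4* gave -6.32 ± 0.39 and -2.14 ± 0.39, both past the threshold (limma adjusted p = 6.25e-09 and 0.00447). In the other direction *cdr-3* gave 4.29 ± 0.29 in e1370 and 0.50 ± 0.29 in m577. *sod-3* gave 4.75 ± 0.25 and 3.56 ± 0.25, both past the threshold (adjusted p = 8.61e-10 and 1.56e-07).

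By chromosome, the share of genes that passed ran from 1.05% on chromosome I to 1.80% on chromosome IV. Chromosome III, which carries *daf-2*, had 21 rises and 4 falls (1.11%), and chromosome X had 11 rises and 22 falls (1.40%). Counting genes next to each other in the RefSeq order, 13 pairs both passed and 11 of these moved the same way. Chosen after their values were seen, they included *hsp-12.3* with *hsp-12.6*, *hsp-16.20* with *hsp-16.21*, *ins-22* with *ins-23*, *gfi-1* with *bcf-1*, *nhr-206* with *nhr-208* and *C17H12.8* with *C17H12.6*. The pairs that moved opposite ways were *mals-1* with *K12H4.7* and *cyp-13B1* with *C29F7.1*. The share among all neighbouring genes was not computed, so these counts are a description.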

How the data were processed

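RNA of whole adults from 4 genotypes, with 5 samples each, was hybridised to Affymetrix arrays of the worm genome. Per the labels, image conversion used Microarray Suite (MAS) 5.0, and normalization ran over the 20 arrays at once with the Robust Multi-chip Average (RMA) in the Affymetrix package of R, version 1.4.14. Values as deposited were taken as log2 from their range, and RMA as usually run gives arrays like distributions, so a change in total RNA would not be seen. No detection value is given in the sources used here. Labels call the replicates biological and do not say which shared a day.

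Of 22625 probe sets, 77 AFFX controls were left out and 22548 tested. The platform annotation gave 1 gene symbol for 20766, several for 887 and none for 895, and those with several were given no name. Symbols of 20701 probe sets were matched to RefSeq (WBcel235), used only for names, chromosomes and gene order. Each of 17118 genes was represented by its brightest probe set (mean of 20 arrays).

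A model with 1 mean per genotype and no covariates was fitted to the 20 arrays with limma 3.58.1 in R 4.3.3. Tests were 2-sided, with Benjamini-Hochberg adjustment over all probe sets and a threshold of 0.05. The same fit gave the alleles without *daf-16*, the difference between these differences, and the *daf-16* effects. Figures used matplotlib 3.10.9.

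Named genes are *daf-2*, *daf-16* and *glp-4*, the 15 largest rises and 15 largest falls past the threshold without overlap, up to 4 members past the threshold for each list (or the 2 largest changes), and the *sod*, *vit*, *hsp-16* and insulin pathway genes. The members and lists were chosen with earlier results of these data known. How large a difference can be detected with the unequal spreads of these arrays was not tested. A gene that did not pass may still differ between the alleles.

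Replicate numbers in the titles did not pair the samples: the deviations of same-numbered arrays correlated at 0.15, -0.10, 0.12, -0.07 and 0.33 across probe sets. Numbers in the alternative sample names, shared by 3 pairs, gave 0.64, -0.19 and 0.25. The alternatives tried were 2 other scalings, a filter on dim probe sets, other limma settings, replicate blocks, covariates and arrays left out. Sequences, promoter motifs and coordinates were not analysed here.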

Additional observations from a re-analysis of the deposited data

Results flagged for a closer look

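In 37 of 320 groups of 5 arrays tested, 1 array lay far from the other 4 by Dixon's test, where chance gives about 1 in 20. Of these, 14 were on m577 replicate 3, and 7 each on e1370 replicate 5 and m577 replicate 1. On m577 replicate 3 the mean of the sperm list was low at 7.2916. There *acdh-1* (6.673), *bcf-1* (9.846), *cyp-35A3* (7.209), *dod-24* (9.013), *sod-3* (9.725), *aqp-1* (8.345), *mec-12* (7.251), *nas-20* (7.92) and *spe-11* (5.887) were low. *F40G12.5* (5.74), *hsp-12.3* (11.097), *hsp-70* (7.726) and *col-183* (11.314) were high on the same array.

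On e1370 replicate 5, *acdh-1* was high (8.573). *hsp-12.3* (10.99), *hsp-16.2* (7.055), *F40G12.5* (6.467), *Y51A2A.4* (6.3), *col-50* (7.431) and *sod-5* (7.074) were low there. On m577 replicate 1, *hxk-1* (6.653), *irg-4* (12.106), *pqm-1* (8.33), *skn-1* (6.964), *smk-1* (6.165) and *srg-32* (5.366) were low and *rpl-41.1* (11.663) was high. On e1370 replicate 2, *daf-16* (7.088), *irg-4* (9.404), *pyk-2* (8.517) and *tni-4* (5.929) were low. The rest were *snt-1* (7.744) and *thn-1* (8.335), high on e1370 replicate 1, *mrps-17* (9.093), low on e1370 replicate 3, *asp-8* (6.41), low on e1370 replicate 4, and *nhr-44* (6.163), high on m577 replicate 4.

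For 22 named genes the difference between the alleles itself differed with and without *daf-16* (limma, adjusted p under 0.05). Many of them were named for a large difference with *daf-16*, which is a term of this test. The change of the log2 difference was negative for *ilys-5* (-5.24), *C32H11.4* (-4.18), *irg-5* (-3.92), *C17H12.8* (-3.46), *dod-24* (-3.12), *irg-8* (-2.27), *fat-7* (-1.91) and *dod-23* (-1.80). It was positive for *cdr-3* (3.78), *F40G12.5* (2.88), *far-7* (2.82), *gst-3* (2.65), *K03D3.2* (2.56), *cyp-13B1* (2.38), *piit-1* (2.35), *djr-1.2* (2.35), *srg-32* (2.25), *F47B8.2* (2.24), *spi-2* (2.12), *gst-41* (1.94), *gst-15* (1.87) and *nhr-208* (0.74).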

How the results depend on the processing

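With 297 probe sets past the threshold between the alleles with *daf-16*, the count was 2611 with array quality weights, 1327 with the sperm and oocyte means as covariates, 176 with only these genotypes in the fit and 91 against a 1.2-fold change. It was 155 without the pair of arrays with 3 in their alternative names, an alternative chosen after seeing the data. Leaving out single arrays gave 121 to 695, and cyclic loess turned the majority to falls (116 higher, 155 lower). Without *daf-16* the count of 1 became 0 under cyclic loess and against a 1.2-fold change, 99 with array weights, and 0 to 5 without single arrays. The count for the change of the difference, 40, became 1113 with array weights, 24 against a 1.2-fold change, and 24 to 71 without single arrays. Leaving out arrays for these last comparisons was also chosen after seeing the data. The replicate number in the titles as a block gave 225, 3 and 40 in the 3 comparisons, and the number in the alternative names gave 30, 0 and 6. The causes were not tested, beyond fewer arrays where arrays were left out. In the block by alternative name, m577 replicates 4 and 5 had numbers found on no other array. A block term for such a number absorbs its array, so the fall to 30 cannot be told apart from the effect of fewer arrays. No named gene that passed changed sign under any setting. Of 81, 27 passed under every setting but the block by alternative name, 64 after cyclic loess, 44 with only these genotypes, 41 against a 1.2-fold change and 18 with that block. With only these genotypes, the calls lost included *Y51A2A.4*, *cyp-35A3*, *far-7*, *gst-41*, *hsp-16.21*, *ins-23*, *nhr-206*, *nhr-208* and *vit-1*. Each of these genes had kept the call with any single array left out. In 73 of the 244 genes a genotype mean in the background range limits the size, and the number of arrays limits the precision.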
